A study of Mus musculus with 12 samples.

Results

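The 8 ion channel genes Piezo2, Trpv1, Trpa1, Trpm8, Trpm3, Trpv2, Trpc1 and P2rx3 of sensory transduction were followed by symbol through ribosome-tagged and total RNA of cultured mouse dorsal root ganglion (DRG) neurons. All 8 were listed among the 14177 genes of the libraries labelled Cre-, and 7 of them among the 9112 genes of the libraries labelled Cre+. Trpv1 was not analysed in the libraries labelled Cre+. All listed members passed the filter of a mean FPKM above 1, and every gene of the Cre+ table had at least 5 counts in each library, so a member had to pass this floor to be described there.

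DRG neurons are the primary afferents that carry touch, body position, temperature, itch and pain. Piezo2 forms a mechanically activated cation channel of touch receptors and proprioceptors. Members of the transient receptor potential (TRP) family open to heat, cold, irritants or receptor signalling, and P2rx3 is a subunit of ATP-gated channels of nociceptors, the neurons that detect harmful stimuli.

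Neurons of all ganglia came from male mice aged 3 to 6 months that were homozygous for an HA-tagged Rpl22 allele (Rpl22HA/HA), a large ribosomal subunit protein, and that were either Runx3-Cre+ or Runx3-Cre-. Runx3 is a transcription factor of proprioceptors and its locus drives the Cre that switches the tag on, so tagging reaches any cell in which this Cre was once active. The ages are those of the labels, and the study's methods give a younger age. Cells pooled from 5 mice were purified on a 20% Percoll cushion and cultured for 24 h, then ribosomes were precipitated with anti-HA antibody (pull-down) and 10% of the lysate was kept as input. There were 3 pull-downs and 3 inputs of each genotype, with no treatment, and in the design the cultures without Cre are the background control of the pull-down.

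Total counts were 9957913 to 13941113 in the Cre+ inputs, 8886308 to 11457315 in the Cre+ pull-downs, 9403767 to 12181960 in the Cre- inputs and 14861795 to 18633365 in the Cre- pull-downs. Runx3 itself was at 22.8, 2.07 and 11.1 normalized counts in the pull-downs labelled Cre+, against 4.28, 2.39 and 5.55 in their inputs (log2 fold change 1.55, FDR 0.309). It was at 20.8, 36.0 and 51.4 in the pull-downs labelled Cre-, against 4.70, 1.90 and 2.88 (log2 fold change 3.52, FDR 0.000236). The driver gene was thus called enriched in the libraries labelled Cre- and not in those labelled Cre+. Of the proprioceptor markers, of which Runx3 is one, 7 of 8 were called enriched in the former (6.01% of all genes) and 1 of 7 in the latter (4.72% of all genes). Their log2 fold changes were mostly positive under both labels, for 8 of 8 with Cre- (median 2.68) and 6 of 7 with Cre+ (median 1.30). Tested directly (Cre+ minus Cre-), the Runx3 enrichment differed by -1.93 on the log2 scale (SE 0.996, edgeR FDR 0.302) and was not called. Between the pull-downs alone Runx3 differed by -1.50 (SE 0.826, edgeR FDR 0.341), also not called. In each test 2 of 7 proprioceptor markers were called lower with the label Cre+ and 0 higher. Over all genes 2.03% and 1.5% were called lower. On the common scale of a fit over all 12 libraries, the 12 pan-neuronal markers summed to 21885 to 28802 normalized counts in the Cre+ inputs, 23262 to 26073 in the Cre+ pull-downs, 24190 to 28986 in the Cre- inputs and 47877 to 54858 in the Cre- pull-downs. The sum weighs abundant genes most. With the label Cre-, 7 of the 12 had a positive log2 fold change and 5 a negative one (median 0.33). There 3 were called enriched (6.01% of all genes) and 0 depleted (5.83%). With the label Cre+, 6 were positive and 6 negative, with 0 called enriched (4.72%) and 2 depleted (2.19%). Because of the Runx3 values, every direction below refers to libraries by their label. The study itself reports a significant overlap in pull-down enrichment between Runx3-Cre+ cultures and Runx3-Cre+ ganglia, and poorer consistency for cultures without Cre. It also reports ribosomal RNA in pull-downs from ganglia of its Cre lines, and undetectable levels without Cre. Whether the labels of the genotypes were exchanged was not tested, and if they were, Cre+ and Cre- would change places in every statement below. Normalized counts are counts divided by the library's TMM-scaled total and multiplied by 1000000, with the scaling made within the 6 libraries of a genotype, and a gene was called where edgeR's quasi-likelihood test gave a false discovery rate (FDR, Benjamini-Hochberg over all genes tested) under 0.1 and a change of at least 2-fold.

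The first question was which channel transcripts the pull-down enriched or lost relative to input. In the libraries labelled Cre+, Piezo2 was the member called enriched and no member was called depleted, so 1 of 7 was called enriched against 4.72% of all genes tested, and 0 of 7 depleted against 2.19%. In the libraries labelled Cre-, P2rx3 was called depleted and no member was called enriched, so 1 of 8 was called depleted against 5.83% of all genes tested, and 0 of 8 enriched against 6.01%. The median log2 fold change of the members was 0.16 in the former, beside 0.08 over all genes, and -0.41 in the latter, beside -0.04. In RNA of mixed cultures, levels compared between cultures cannot tell fewer cells of a type from less RNA per cell. Input was part of the lysate, and which cells gave a transcript to the pull-down was not tested.

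**Figure D1:**
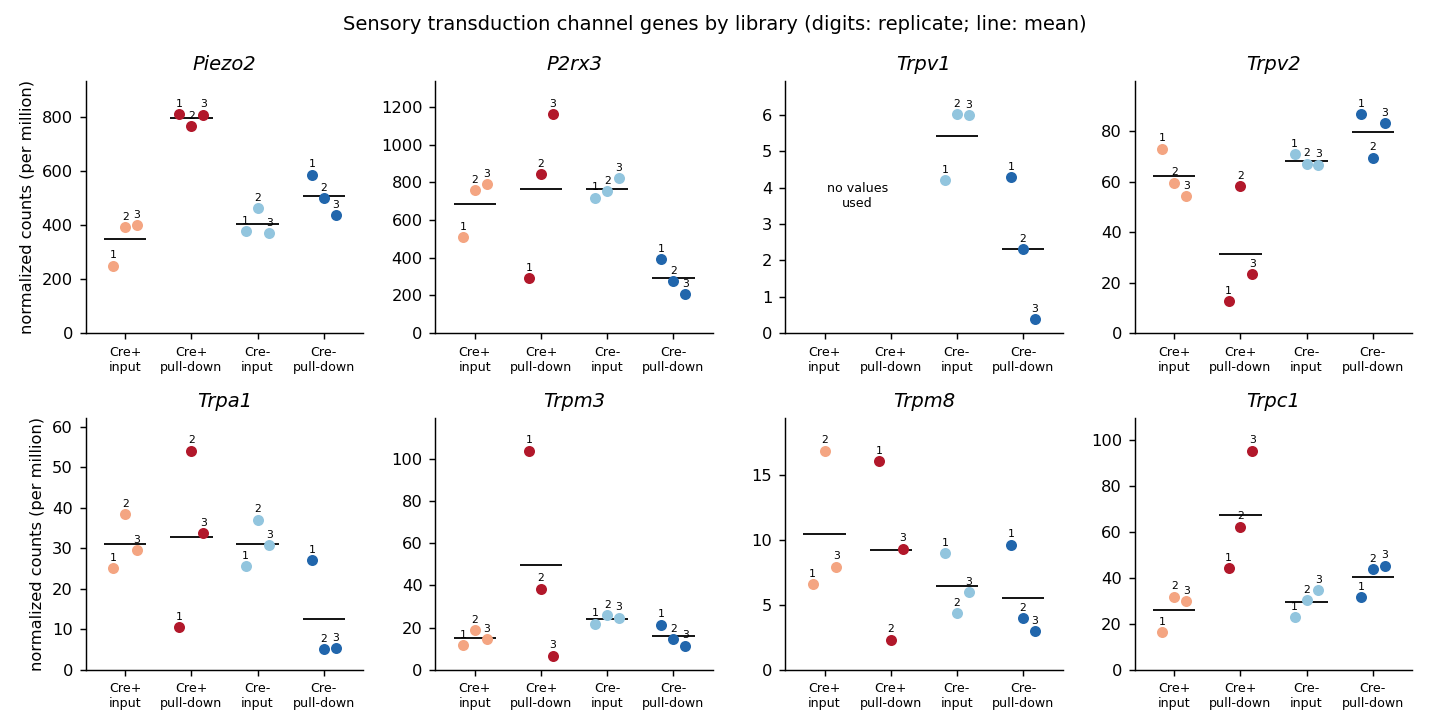
Normalized counts (vertical axis from 0) of each channel gene in every library; points are libraries, digits their replicate numbers and lines the means of 3. Piezo2 sat at 767 to 811 in the 3 pull-downs labelled Cre+, above every input, and P2rx3 at 208 to 392 in those labelled Cre-, below every input.

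Piezo2 (Entrez 667742; GRCm38 chromosome 18, 63010213 to 63387716, minus strand) had normalized counts of 811, 767 and 808 in the pull-downs labelled Cre+ and of 249, 392 and 399 in their inputs. All 3 pull-downs lay above all 3 inputs, as they did for 15.5% of genes tested. The means were 795 ± 24.5 and 347 ± 84.5 (SD, n = 3 each), a 2.29-fold enrichment (log2 fold change 1.20, SE 0.26, edgeR FDR 0.0540). The pull-down level was tight for these libraries. Its coefficient of variation was 3.09%, and 0.268% of tested genes had a lower one, where the median gene had 53.1%. Leaving out any one of the 3 inputs labelled Cre+ ended the call, with FDR 0.186, 0.152 and 0.161 for inputs 1, 2 and 3 and log2 fold changes of 1.01, 1.29 and 1.31. In the same fits the genes called enriched over the whole table fell from 422 to 7, 59 and 4. Scaling by upper quartile (log2 fold change 0.99) or by library size alone (0.75, FDR 0.130) also ended it.

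Under the label Cre-, Piezo2 had 586, 500 and 437 normalized counts in the pull-downs and 377, 461 and 369 in the inputs. Pull-down 3 lay below the highest input, so the groups overlapped. The means were 508 ± 74.8 and 402 ± 50.7 (SD, n = 3 each) and the log2 fold change was 0.33 (SE 0.16, edgeR FDR 0.179). Piezo2 was therefore not called in these libraries, although they were the ones in which most proprioceptor markers were called enriched. Over the 7 proprioceptor markers of both tables (Pvalb was not analysed for the label Cre+), on the common scale of 12 libraries, the sum ranged from 1364 to 1670 normalized counts over Cre- pull-downs, against 387 to 417 over Cre- inputs. With the label Cre+ it ranged from 748 to 915 over pull-downs, against 318 to 440 over inputs.

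The thermosensitive and chemosensitive TRP channels had lower mean levels per kb of exon than Piezo2 in every group. Trpv1 (Entrez 193034; chromosome 11, 73234149 to 73261322, plus strand), the capsaicin and heat receptor, had 77, 34 and 5 raw counts across pull-downs labelled Cre- and 43, 73 and 79 in the inputs. In normalized counts these were 4.30, 2.30 and 0.372 against 4.21, 6.03 and 5.99. Pull-down 1 reached the range of the inputs and pull-down 3 was near the bottom of the scale. The log2 fold change was -1.20 (SE 0.70, edgeR FDR 0.265), and without pull-down 1 it was -1.98 (FDR 0.0748), which passed the threshold. Over all 6 fits that left out one library it ran from -1.98 to -0.70, with FDR up to 0.460, and 5 stayed uncalled.

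Trpa1 (Entrez 277328; chromosome 1, 14872644 to 14918862, minus strand), a receptor for pungent irritants, had 10.5, 54.1 and 33.7 normalized counts across pull-downs labelled Cre+ and 25.1, 38.5 and 29.6 in their inputs. The pull-downs fell on both sides of the inputs (log2 fold change 0.08, SE 0.64, edgeR FDR 0.955). Under the label Cre- it had 27.1, 5.15 and 5.36 in the pull-downs and 25.6, 37.1 and 30.9 in the inputs. Pull-downs 2 and 3 were far below every input, and pull-down 1 was within the inputs' range. With all 6 libraries the log2 fold change of -1.31 (SE 0.61, FDR 0.183) was not called. Without pull-down 1 it was -2.55 (SE 0.32, edgeR FDR 7.48e-05), and it was also called with the replicate number as a block (-1.78, SE 0.55, edgeR FDR 0.0527), by DESeq2 (FDR 0.0392) and by edgeR's exact test (FDR 0.0866). It stayed uncalled in 8 of 11 other settings (FDR up to 0.349) and in 5 of 6 fits that left out one library. Over those 6 fits it ran from -2.55 to -0.94, with FDR up to 0.351.

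Trpm8 (Entrez 171382; chromosome 1, 88306735 to 88388853, plus strand), the menthol and cold receptor, had 16.1, 2.32 and 9.35 normalized counts across pull-downs labelled Cre+ and 6.63, 16.9 and 7.96 in the inputs. Under the label Cre- the values were 9.65, 4.00 and 2.98 against 9.02, 4.38 and 5.99. Pull-downs and inputs overlapped under both labels, with log2 fold changes of -0.18 (SE 0.80, edgeR FDR 0.913) and -0.21 (SE 0.52, FDR 0.819). Of its exon bases 9.36% lie opposite exons of 4930453O03Rik, so some reads could belong to either gene where counting did not use strand.

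Trpm3 (Entrez 226025; chromosome 19, 22137797 to 22995410, plus strand), a channel opened by heat and by the steroid pregnenolone sulphate, spread the most among the pull-downs labelled Cre+. Its normalized counts were 104, 38.4 and 6.70 there and 11.6, 18.8 and 14.5 in the inputs. Pull-downs 1 and 2 lay above every input and pull-down 3 below every input, and the log2 fold change of 1.73 (SE 0.84, edgeR FDR 0.247) was not called. Without pull-down 3 it was 2.26 (FDR 0.0993) and in the fit of all 12 libraries 1.72 (FDR 0.0823), both past the threshold, but without pull-down 1 it was 0.63 (FDR 0.579). Among the libraries labelled Cre-, Trpm3 had 21.4, 14.4 and 11.5 in the pull-downs and 21.9, 25.8 and 24.7 in the inputs. Every pull-down was below every input, as for 18.6% of genes tested, with a log2 fold change of -0.61 (SE 0.29, FDR 0.175). Its exons overlap antisense exons over 4.04% of their length.

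Cre+ pull-down 1, the library with the highest Trpm3, stood apart from the other libraries. Across genes its log2 normalized counts correlated with theirs at r = 0.632 to 0.754, where the 3 Cre- pull-downs correlated with each other at 0.938 to 0.974. Cre+ pull-downs 2 and 3 correlated with each other at 0.846, and pull-down 3 with all other libraries at 0.710 to 0.846. Of all 12 libraries it had the highest endothelial sum, and of the 6 libraries labelled Cre+ the highest macrophage sum. Of 6 endothelial markers 5 were listed and Cldn5 was not. Their summed level was 561 normalized counts in that library, 118 and 156 in the other Cre+ pull-downs and 51.6 to 96.0 in the Cre+ inputs. In the Cre- pull-downs the sum was 144, 21.4 and 25.5, again highest in library 1, against 70.7 to 95.4 in the inputs. Of 6 macrophage markers 2 were listed for the label Cre+, summing to 112 in pull-down 1, 16.8 and 4.85 in the other Cre+ pull-downs and 25.8 to 68.2 in the inputs. With the label Cre- 4 were listed, and their sum reached 119 in input 1. The part of these cells in the channel levels was not tested.

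Trpv2 (Entrez 22368; chromosome 11, 62574486 to 62600305, plus strand), a TRP channel of large-diameter DRG neurons and of other cell types, had 12.5, 58.3 and 23.3 normalized counts across pull-downs labelled Cre+ and 73.1, 59.6 and 54.2 in the inputs. Pull-downs 1 and 3 were below every input and pull-down 2 was among them (log2 fold change -0.99, SE 0.59, edgeR FDR 0.333). With one library left out that value ran from -1.77 to -0.57, uncalled in all 6 fits. Among the libraries labelled Cre- Trpv2 had 86.8, 69.5 and 83.1 against 70.8, 67.1 and 66.7. These inputs were close together, pull-downs 1 and 3 were above all of them, and the log2 fold change was 0.23 (SE 0.18, FDR 0.416).

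Trpc1 (Entrez 22063; chromosome 9, 95705072 to 95750386, minus strand), a subunit of receptor-operated cation channels, had 44.1, 62.3 and 95.4 normalized counts across pull-downs labelled Cre+ and 16.2, 31.8 and 30.0 in the inputs. Every pull-down was above every input. The 2.58-fold difference (log2 fold change 1.37, SE 0.50, edgeR FDR 0.147) was not called, but was by DESeq2 (FDR 0.0319), with all 12 libraries in one fit (FDR 0.0245) and without pull-down 1 (1.64, FDR 0.0477). It stayed uncalled in 5 of 6 fits that left out one library and in 8 of 10 other settings. The log2 fold change ran from 1.06 to 1.64 (FDR up to 0.427) over the former and from 0.94 to 1.44 over the latter. With the label Cre- the values were 31.6, 43.8 and 45.3 against 22.8, 30.4 and 34.6. Pull-down 1 lay within the inputs' range there, and the log2 fold change was 0.46 (SE 0.25, FDR 0.231).

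P2rx3 (Entrez 228139; chromosome 2, 84996549 to 85037108, minus strand) had 392, 277 and 208 normalized counts across pull-downs labelled Cre- and 719, 755 and 821 in the inputs. Every pull-down lay below every input. The means were 292 ± 93.0 and 765 ± 51.9 (SD, n = 3 each), so P2rx3 was 2.62-fold lower in the pull-down (log2 fold change -1.39, SE 0.21, edgeR FDR 0.000868). It was called in all 6 fits that left out one library, with log2 fold changes of -1.64 to -1.18, and under each of the other 11 settings.

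Under the label Cre+, P2rx3 had 293, 843 and 1162 normalized counts in the pull-downs and 510, 759 and 789 in the inputs. Pull-down 1 was below every input and pull-downs 2 and 3 were above every input. The means of 766 ± 440 and 686 ± 153 (SD, n = 3 each) differed by a log2 fold change of 0.16 (SE 0.44, edgeR FDR 0.861). The sign of this value changed with the scaling: it was -0.25 by library size alone.

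**Figure D2:**
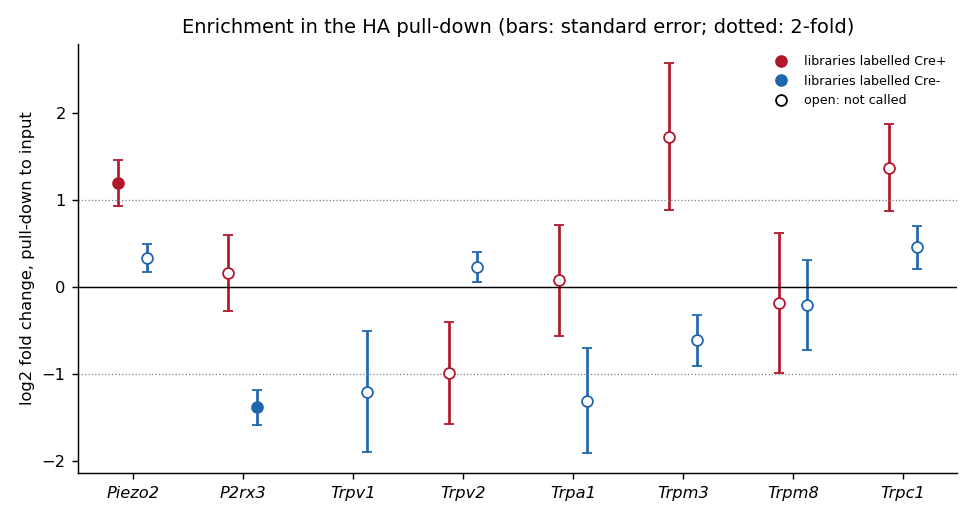
Pull-down over input as a log2 fold change (vertical axis) for each channel gene, red for libraries labelled Cre+ and blue for Cre-; points are edgeR estimates, bars their standard errors, filled points were called and dotted lines mark 2-fold. The filled points are Piezo2 at 1.20 (Cre+) and P2rx3 at -1.39 (Cre-).

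The members were also compared by single library. Among the pull-downs labelled Cre-, library 1 was the highest for 7 of the 8 members, and Trpc1 was the exception. In that library 0 of 8 members lay more than 2-fold below the mean input, against 3 in pull-down 2 and 5 in pull-down 3. The shares of all genes with these patterns were not counted, so neither is shown to be particular to the members. Across genes pull-down 1 correlated with pull-downs 2 and 3 at 0.947 and 0.938, and those with each other at 0.974. Summed markers of nociceptors and other cutaneous sensory neurons were also highest in pull-down 1 (2128 normalized counts, against 1466 and 1429), with 2730 to 2955 in the inputs. All 11 genes of that list were listed. With the label Cre- 4 of them were called depleted, against 5.83% of all genes, and with the label Cre+ 2 of them, against 2.19%. Fibroblast markers (89.8, against 29.5 and 25.2) and macrophage markers (58.6, against 30.4 and 29.7) were highest in pull-down 1 as well. Proprioceptor markers (1463, against 1705 and 1788) and pan-neuronal markers (49288, against 56836 and 56511) were lowest there. Schwann and satellite glia markers (11 of 12 listed, Gfap not) summed to 2310, 1904 and 2300 in these pull-downs, all below the 3892 to 5067 of the inputs, and 3 of the 10 tested were called depleted, against 5.83% of all genes. The part of these in the channel values was not tested.

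**Figure D3:**
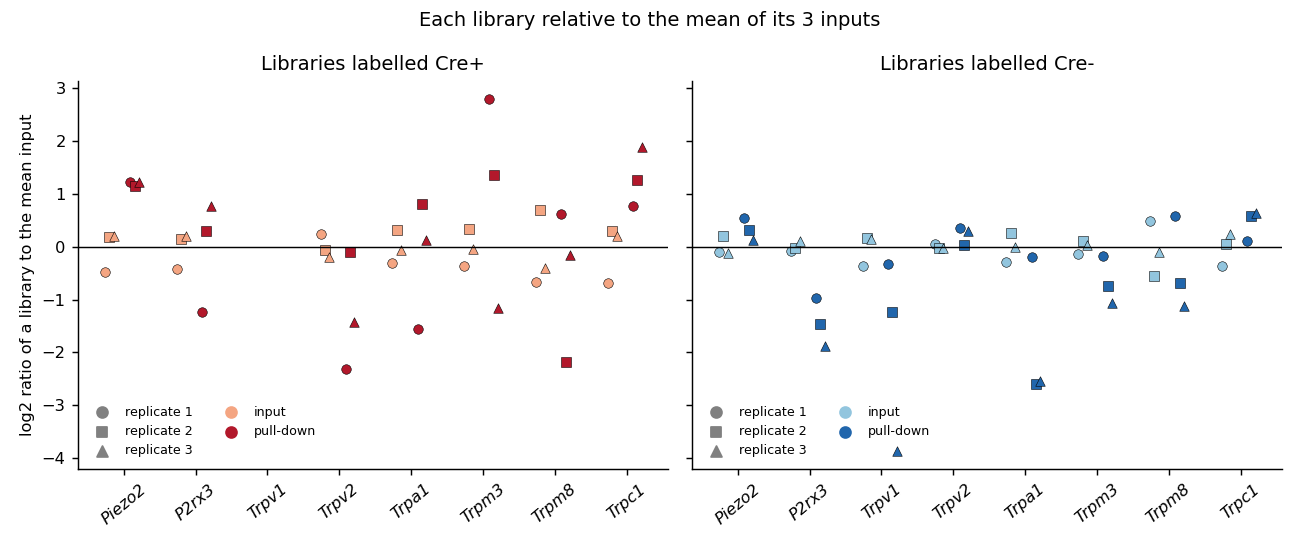
Log2 ratio of each library to the mean of the 3 inputs of its label (vertical axis) for each channel gene; marker shape gives the replicate, dark points are pull-downs and light points inputs. Cre- pull-down 1 (dark blue circles) lies above pull-downs 2 and 3 for 7 of 8 genes, and the share of all genes with this order was not counted. The coefficient of variation over the Cre+ pull-downs was 3.09% for Piezo2. For the other members it ran from 38.7% (Trpc1) to 99.8% (Trpm3), beside 53.1% for the median gene.

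The second question was whether the enrichment differed between the labels. The difference of both enrichments (Cre+ minus Cre-) was tested over genes in both tables. Of the 7 members 0 were called higher in this test, against 2.33% of all genes, and 0 lower, against 2.03%. Piezo2 differed by 0.90 on the log2 scale (SE 0.29, unadjusted p = 0.00858, edgeR FDR 0.130) and P2rx3 by 1.59 (SE 0.54, unadjusted p = 0.0111, edgeR FDR 0.145). Trpm3 had the highest estimate, 2.36 (SE 0.94, FDR 0.197), and Trpv2 the only negative one, -1.17 (SE 0.61, FDR 0.308). The median over the 7 was 0.95, beside 0.13 over all genes. A call for one label and not for the other was thus not shown to be a difference between the labels.

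The differences of P2rx3, Trpm3 and Trpv2 were called when one Cre+ pull-down was left out. That of Piezo2 passed the FDR threshold, short of 2-fold, without Cre+ pull-down 1 (0.90, FDR 0.0745), without Cre+ pull-down 2 (0.91, FDR 0.0891) and by DESeq2 (0.94, FDR 0.0565). Without pull-down 1, the P2rx3 difference was 1.98 (SE 0.35, edgeR FDR 0.00694). Without pull-down 3, the Trpm3 difference was 2.88 (FDR 0.0303), but without pull-down 1 it was 1.25 (FDR 0.303). Without pull-down 2, the Trpv2 difference was -1.99 (FDR 0.0254). Among the 12 fits that left out one library, 11 did not call Trpv2 and 11 did not call P2rx3. Their differences ran to -0.79 (FDR up to 0.488) and to 1.16 (FDR up to 0.317). Over all genes the called differences also rose in the fits without a Cre+ pull-down, from 209 higher and 182 lower to 635 and 600 without pull-down 1, 713 and 694 without pull-down 2 and 504 and 452 without pull-down 3. DESeq2 called P2rx3 (1.62, FDR 0.0565) and Trpm3 (2.43, FDR 0.0795), in a fit that called 612 genes higher and 428 lower.

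Between the pull-downs of both labels 0 of the 7 members were called higher with the label Cre+, against 1.36% of all genes, and 0 lower, against 1.5%. Piezo2 was 0.73 higher on the log2 scale in those labelled Cre+ (SE 0.21, edgeR FDR 0.122) and P2rx3 1.47 higher (SE 0.46, FDR 0.144). Without Cre+ pull-down 1 the P2rx3 value was 1.87 (FDR 0.0126) and that of Trpc1 1.06 (FDR 0.0969), both past the threshold, in a fit that called 584 genes higher and 536 lower where all 6 pull-downs gave 122 and 134. Without Cre+ pull-down 2 the value of Trpv2 was -2.06 (FDR 0.0961), with 251 and 204 genes called. Between the inputs of both labels edgeR called none of the 7 and 0 of 8954 genes, with 179 genes at an unadjusted p under 0.05, and DESeq2 called 1. The members' input differences ran from -0.61 (Trpm3) to 0.78 (Trpm8) on the log2 scale.

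Levels were compared between genes as normalized counts per kb of exon. In the inputs labelled Cre-, P2rx3 stood highest at 422 ± 28.6 (SD, n = 3), then Piezo2 at 37.5 ± 4.73, Trpv2 at 23.4 ± 0.765, Trpa1 at 7.31 ± 1.35 and Trpc1 at 6.42 ± 1.30. Trpm3 (1.68), Trpv1 (1.61) and Trpm8 (1.56) came last. Trpa1 and Trpc1 overlapped, and so did the last 3, while every other pair of neighbours was apart in all libraries. The inputs labelled Cre+ gave the same first 5 places, with P2rx3 at 379 and Piezo2 at 32.3, but there Piezo2 and Trpv2 overlapped, as did Trpc1 and Trpm8.

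In the pull-downs P2rx3 and Piezo2 remained first and second per kb under both labels. In those labelled Cre- the levels per kb were 161 ± 51.3 and 47.3 ± 6.98, and in those labelled Cre+ 423 ± 243 and 74.1 ± 2.29. Trpc1 followed them per kb in the pull-downs labelled Cre+ at 14.8, where its range overlapped that of Trpv2 at 10.8. The exon length of Trpm3, 14.3 kb over all its RefSeq-linked transcripts, is the longest of the 8, and its level per kb would be higher on a shorter transcript.

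**Figure D4:**
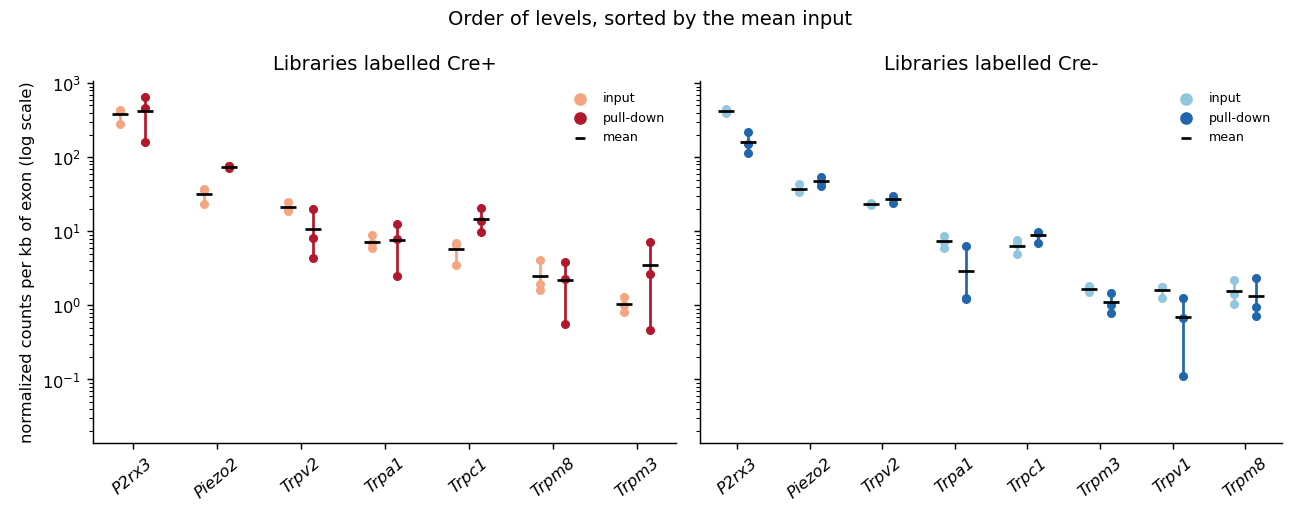
Normalized counts per kb of exon (log scale, vertical axis) for each channel gene, sorted by the mean input of each label; points are libraries, vertical lines their range and black dashes the mean. P2rx3 and then Piezo2 stand highest in inputs and pull-downs of both labels.

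Over the 12 libraries, the member pairs with the most similar profiles were P2rx3 and Trpa1 (Pearson r = 0.90 of log2 normalized counts) and Piezo2 and Trpc1 (r = 0.85). Outside the members, the genes most like Piezo2 among 7779 were Ago2 (r = 0.98), Aff4 (0.97) and Phf8 (0.97). Those most like P2rx3 were Mras (0.96), Rnf144a (0.95) and Pam (0.95). Those most like Trpa1 were Tm7sf3 (0.96), Kit (0.95) and Cdh1 (0.94), and those most like Trpc1 were Tcp11l1 (0.98), Mical3 (0.98) and Soga1 (0.97). Trpm3 was most like Rbms2 (0.96), Trpv2 most like Dcun1d2 (0.97), and Trpm8, at low counts, most like Golph3l (0.88). These are descriptions over shared libraries, in which the label and the fraction are common to all genes.

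Of 66 other genes of sensory transduction in 5 lists, 31 were tested between pull-down and input with the label Cre+ and 39 with the label Cre-. With the label Cre+ 0 of 31 were called, against 4.72% enriched and 2.19% depleted over all genes. With the label Cre- 4 of 39 were called enriched and 3 depleted, against 6.01% and 5.83%. Among the other TRP channels 0 of 5 tested were called in the former. In the latter 1 of 7 was, Trpm2, a channel opened by oxidative signals and warmth, with 14.4, 15.6 and 19.3 normalized counts in the pull-downs and 9.11, 10.3 and 4.85 in the inputs (log2 fold change 1.02, edgeR FDR 0.0663). That call ended without input 1, input 3, pull-down 2 or pull-down 3 (FDR 0.103 to 0.213), with upper-quartile scaling (0.99) or library size scaling (0.78, FDR 0.137), at an FDR limit of 0.05, and with all 12 libraries in one fit (FDR 0.324). Among the other P2X receptors P2rx4 fell (log2 fold change -1.29, FDR 0.00618) and P2rx6 rose (1.07, FDR 0.0383) in the pull-downs labelled Cre-, of 3 tested. The P2rx6 call ended without input 2, input 3 or pull-down 2 (FDR 0.119 to 0.138) and with library size scaling (0.83, short of 2-fold). P2rx4, like P2rx3, had every pull-down below every input, at 11.8 to 16.3 against 30.4 to 43.4 normalized counts, and with all 12 libraries in one fit its call ended (FDR 0.172).

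Among the acid-sensing channels 1 of 4 tested was called enriched in the libraries labelled Cre-, against 6.01% of all genes. Asic1, a proton-gated cation channel, had 61.3, 132 and 116 normalized counts in the pull-downs and 45.6, 28.6 and 25.2 in the inputs (log2 fold change 1.64, SE 0.31, edgeR FDR 0.00429). Its relative Asic2 lay below every input in these pull-downs (-0.75, FDR 0.0526), short of 2-fold. Of the other mechanosensitive channels and cofactors 0 of 10 were called there and 0 of 8 in the libraries labelled Cre+. Piezo1, the relative of Piezo2 in endothelium and other tissues, was at 74.2, 9.63 and 3.12 normalized counts across Cre+ pull-downs. Cre+ inputs held 7.77, 21.0 and 12.3. Pull-down 1, where Piezo1 was highest, was the library that stood apart from the others. Why Piezo1 was highest there was not tested.

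Among the channel modulators and upstream receptors 1 of 15 tested was called enriched and 2 depleted in the libraries labelled Cre-, against 6.01% and 5.83% of all genes. In those labelled Cre+ 0 of 11 were called, against 4.72% enriched and 2.19% depleted. Hrh1, a histamine receptor, fell in the pull-downs labelled Cre- (log2 fold change -1.84, edgeR FDR 0.00185), as did Tmem100, a membrane protein that links Trpa1 and Trpv1 (-2.92, FDR 0.0235, at under 1 normalized count in each pull-down). Ano1, a calcium-activated chloride channel, rose from 7.64, 9.16 and 14.3 normalized counts in the inputs to 84.4, 84.5 and 80.0 (2.99, SE 0.26, edgeR FDR 3.44e-05). Pirt, a membrane protein that regulates Trpv1 and Trpm8, fell by 0.93 (FDR 0.000949), short of 2-fold, from 952 to 1061 normalized counts to 475 to 583. In the pull-downs labelled Cre+ Pirt was at 686, 1164 and 1447, and in their inputs at 712, 1009 and 974. These groups overlapped, and the change was not called (log2 fold change 0.29, SE 0.31, edgeR FDR 0.590). Prkce, a protein kinase C that sensitises Trpv1, passed the FDR threshold with the label Cre+ short of 2-fold (0.94, SE 0.24, edgeR FDR 0.0762), at 440, 561 and 578 normalized counts in the pull-downs and 251, 273 and 299 in the inputs.

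**Figure D5:**
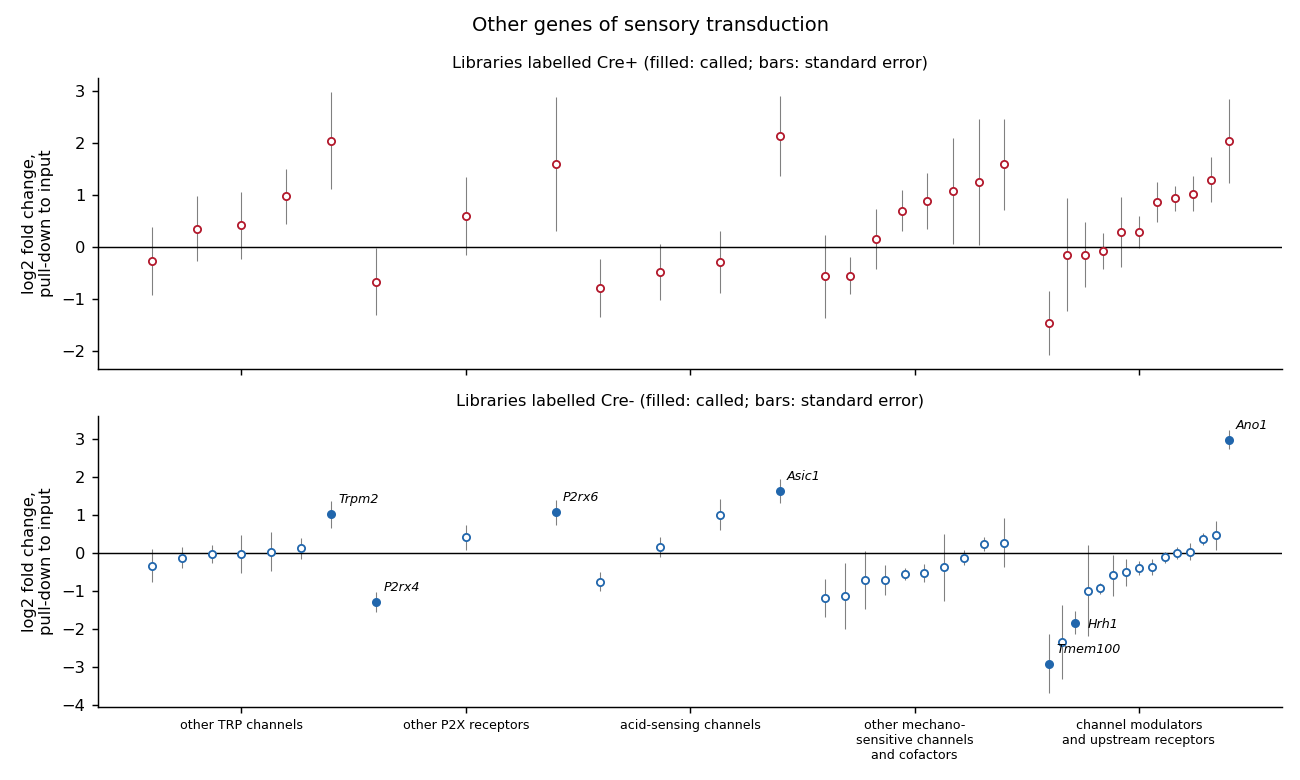
Pull-down over input as a log2 fold change (vertical axis) with standard error for every tested gene of the 5 lists, grouped by list and sorted within it; filled points were called and are named. No gene of the lists was called in the libraries labelled Cre+, and 7 were called in those labelled Cre-, among them Ano1 at 2.99 and Asic1 at 1.64.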

How the data were processed

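Ribosome-tagged (pull-down) and input RNA of cultured DRG neurons was sequenced in 12 libraries. The submitters' processing notes name CASAVA 1.8.2, edgeR and mm10. By the study's methods, the authors aligned reads to mm10 with STAR and counted uniquely mapped fragments per gene with HTSeq on RefSeq genes; a strand setting is not given in the sources used here. The authors deposited 1 table per genotype with raw counts per gene and a mean FPKM over its 6 libraries. Its normalized counts and ratios per library (18 columns over both tables) and the authors' own comparison were not used.

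Counts were tested in R 4.3.3 with edgeR 4.0.16 (TMM, robust quasi-likelihood fit) on genes with a deposited mean FPKM above 1. Called genes had FDR under 0.1 and at least a 2-fold change. The standard error is the log2 fold change divided by the square root of F. Genotypes were compared over genes in both tables, with a mean FPKM above 1. DESeq2 1.42.0, other filters and scalings, and each library left out were alternatives; non-robust estimation was added after seeing the data. The code of the fits was run on simulated counts. That simulation had the same spread setting for every gene and library, so it does not speak to the wide spread of the Cre+ pull-downs.

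Columns of the libraries labelled Cre+ were mapped to their group only, so their numbers only tell libraries apart. Apart from punctuation, these column names equal or nearly equal titles of the other genotype. The labels do not say whether replicates were cultured separately, so p-values measure the spread between these samples, which may be technical. Coordinates are from RefSeq (GRCm38.p6) and exon lengths from GENCODE. The named genes are the 8 members, the genes of the 5 lists that were called or compared, and genes most like the members, up to 3 for each of the 7 in both tables (Pearson r of log2(normalized count + 1) over 12 libraries, mean of at least 10). A gene of the lists is not reported here and was left out of their counts and sums. Members and lists were chosen with earlier results of these data known. Counting error sets a floor for low genes such as Trpv1. Figures were drawn with matplotlib 3.10.9.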

Additional observations from a re-analysis of the deposited data

Results flagged for a closer look

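Of 31 other genes of sensory transduction tested for a difference of the enrichment between the labels (Cre+ minus Cre-, log2 scale, 12 libraries), 1 was called higher and 1 lower, against 2.33% and 2.03% of all genes. Pirt differed by 1.26 (SE 0.35, edgeR FDR 0.0809). Leaving out any one of the 6 inputs or the 3 Cre- pull-downs ended this call (FDR 0.117 to 0.211), as did upper-quartile scaling (1.10, FDR 0.155), library size scaling (1.04, FDR 0.159) and an FDR limit of 0.05. Ano1 differed by -2.67 (SE 0.66, edgeR FDR 0.0689). Leaving out any one of the 6 inputs, or Cre- pull-down 2 or 3, ended that call (FDR 0.115 to 0.190), as did an FDR limit of 0.05. Prkce passed the FDR threshold in the same test, short of 2-fold (0.98, SE 0.27, edgeR FDR 0.0797).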

How the results depend on the processing

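P2rx3 was called depleted in the libraries labelled Cre- under every setting run. The count of members enriched in the libraries labelled Cre+ (1) was 2 with DESeq2 and 3 with all 12 libraries in one fit, where 1103 and 1250 genes were called enriched over all genes instead of 422. It was 0 with upper-quartile scaling, library size scaling or FDR under 0.05, and 0 to 2 with one library left out. The count depleted in those labelled Cre- (1) was 2 with DESeq2 or edgeR's exact test, where 718 and 800 genes were called depleted over all genes instead of 672. It was 1 to 3 with one library left out, where 525 to 1060 genes were called depleted, the most without pull-down 1. For the difference (0), DESeq2 called 2 higher, and leaving out one library gave 0 to 1 higher and 0 to 1 lower. Between pull-downs (0), DESeq2 called 1 higher (774 of all genes, instead of 122), and leaving out one library gave 0 to 2 higher and 0 to 1 lower. The causes were not tested.

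Same-numbered Cre- pull-down and input deviations correlated at 0.0746, 0.0335 and 0.141. Not every pair was over 0.1, so the numbers were not taken to pair the libraries, although each library correlated best with its own number (others -0.123 to 0.0295), a hint from the data. The labels do not say whether a number marks one lysate. With a replicate block, 704 genes were called enriched and 792 depleted, and 2 members were depleted, P2rx3 and Trpa1. No block was fitted for the libraries labelled Cre+, whose column numbers could not be matched to samples.

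Signs of uncalled values changed. In the libraries labelled Cre+, upper-quartile and library size scaling gave -0.057 and -0.32 for Trpa1 and -0.0015 and -0.25 for P2rx3. The Trpm8 difference became -0.20 and -0.25, and Trpv2 in the libraries labelled Cre- became -0.0044 by library size. Leaving out one library also changed signs: log2 fold changes in the libraries labelled Cre+ ran from -0.46 to 0.54 for Trpa1, -0.24 to 0.59 for P2rx3 and -0.81 to 0.34 for Trpm8, and in those labelled Cre- from -0.87 to 0.10 for Trpm8. The Trpm8 difference ran from -0.59 to 0.71. Between inputs the ranges were -0.24 to 0.047 (Piezo2), -0.12 to 0.21 (Trpa1), -0.19 to 0.053 (Trpv2), -0.27 to 0.15 (Trpc1) and -0.18 to 0.088 (P2rx3).

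Over all genes with one library left out, 4 to 803 were called enriched and 0 to 540 depleted in the libraries labelled Cre+ (422 and 196), and 575 to 817 and 525 to 1060 in those labelled Cre- (693 and 672); over the other settings these were 139 to 1250, 26 to 948, 270 to 1502 and 175 to 1284. For the difference (209 higher and 182 lower), leaving out one library gave 13 to 713 and 30 to 694. Library size scaling moved the split to 192 enriched and 699 depleted (Cre+), 429 and 1238 (Cre-), and 72 higher and 275 lower for the difference, and upper-quartile scaling to 249 and 266 (Cre+) and 85 and 205 (difference). By library size the median log2 fold change of all genes moved from 0.08 to -0.36 (Cre+) and from -0.04 to -0.27 (Cre-). Depth limits what the few counts of Trpv1 and Trpm8 show.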
